A study of Mus musculus with 8 samples.

Results

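The genes described here are 64 predicted mouse genes, named Gm and a number or with the ending Rik, whose read coverage was higher in macrophages with a deleted Nudt21 than in WT macrophages at both times measured. They were taken from 4669 such names among the 21080 gene symbols of the data. The rule asked, at 0 h and again at 4 h, that both Nudt21-cKO samples had a coverage of at least 2 and that the lower cKO value was at least 1.5 times the higher WT value. The genes were thus chosen by the WT and cKO coverage values themselves, which are given as a description with no test. RNA-seq was performed on bone marrow-derived macrophages (BMDMs, grown from bone marrow with M-CSF) of C57BL/6 mice, in 4 groups of 2 samples, each sample a pool of cells from 2 mice. Nudt21-cKO mice were Nudt21 fl/fl with LysM Cre, which removes exons 2 and 3 of Nudt21 in myeloid cells, and the WT mice were sex-matched littermates carrying the same LysM Cre. The 0 h samples were taken as unstimulated from their titles, although their labels name the same treatment as those of the 4 h samples, and the 4 h samples had IFNγ overnight and then LPS for 4 h, in both genotypes. LysM drives Cre in myeloid cells only, and the cKO samples kept some Nudt21 RNA. With 2 pools a group, p-values measure only the spread between these pools.

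Nudt21 encodes CFIm25, the subunit of cleavage factor Im that binds UGUA in nascent RNA and helps the cleavage machinery choose a poly(A) site. Names of the Gm and Rik kind are placeholders given to gene models known mainly from cDNA or gene prediction, and most of them are long noncoding RNAs, made close to promoters, on the strand opposite to another gene, inside introns or past gene ends. RNAs of this kind are often held at a low level by early termination and by the nuclear exosome. In macrophages, IFNγ and LPS induce many coding and noncoding transcripts together.

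The unit was mean read coverage per base, 1 value per gene symbol and sample, and its sum over all genes ranged from 14950347 to 17954882 per sample. Nudt21 had a coverage of 718 and 641 in WT against 158 and 172 in cKO at 0 h, then 547 and 575 in WT against 142 and 115 in cKO at 4 h. The library kit did not mark strand, so reads of a gene and of its opposite-strand partner could not be told apart. All 8 macrophage markers were measured in every sample, with Csf1r between 13055 and 44260, while 5 of 6 T cell, 4 of 5 B cell and 4 of 5 erythroid markers were listed at 0 in at least 1 sample. By the study's threshold (fold change over 1.5, unadjusted p under 0.05 from limma), Cd68 rose and Adgre1 and Fcgr1 fell in cKO at 0 h, and Cd68 and Lyz2 rose at 4 h. After each sample was centred on its median, Csf1r also fell at 0 h, and at 4 h Cd68 rose, Adgre1 and Fcgr1 fell and Lyz2 did not pass. The 5 fibroblast markers summed to 86.9 and 193 in WT against 155 and 222 in cKO at 0 h, and to 16.5 and 92.4 in WT against 80.7 and 116 in cKO at 4 h. By the same threshold 2 of the 5, Col3a1 and Pdgfra, rose in cKO at 0 h and 1, Col3a1, at 4 h (0 at 4 h after centring), and their part in the results was not tested. Of the other lists, Cd79b (B cell) and Alas2 (erythroid) fell at 0 h, Camp (neutrophil) and Zbtb46 (dendritic cell) rose and Xcr1 (dendritic cell) fell at 4 h, and no T cell or mast cell marker passed. After centring Camp no longer passed and Mpo (neutrophil) fell at 4 h. The Y-linked Ddx3y fell in cKO at both times. None of the 61 members matched to GENCODE lay on X or Y. In such bulk samples, fewer cells that express a gene and less RNA per cell cannot be told apart.

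Because Nudt21 acts at RNA 3′ ends, the annotated ends of members with high coverage or very large ratios are shown first. The last 30 bases of a GENCODE M21 transcript (GRCm38) are given 5′ to 3′ on the gene's own strand, in the DNA alphabet, and capitals mark AATAAA or ATTAAA, the 2 common poly(A) signal hexamers, where a search of that strand found one. They come from chr1:39547570-39547599 (minus strand), chr13:98713074-98713103 (minus strand), chr2:6473082-6473111 (plus strand), chr11:75530277-75530306 (minus strand), chr14:22933471-22933500 (plus strand) and chr9:78002232-78002261 (plus strand).
Gm15832: attAATAAActtaaaagttgattgtggtta
Gm9465: taATTAAAatgcttttgctcactgatacaa
Gm13391: gagccgttggAATAAAtacacacttattct
Gm45606: cttcaAATAAAtagtgcccccttctccctc
Gm47601: aatttaataacaaaaggttggaaaatgaac
Gm34829: gatggatggaggcataggtggataggtggg

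In Gm15832, Gm9465, Gm13391 and Gm45606 the hexamer began 27, 28, 20 and 25 bases before the end of the transcript shown. Another Gm13391 transcript, which ends at position 6478619, held neither spelling in its last 30 bases. In Gm47601 and Gm34829 neither spelling was present in this window. A hexamer was found in the last 50 bases of an annotated transcript of 39 of the 61 members that matched GENCODE (63.9%), of 64.5% of 877 other predicted genes and of 52.5% of 3922 noncoding genes. TGTA, the DNA spelling of UGUA, was in the last 100 bases of 55.7%, 58.8% and 46.6% of the same groups. The members' annotated ends thus held these letters about as often as those of the other predicted genes. Those had both cKO values of at least 2 at both times and were not raised, but were not matched for coverage.

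Across the 64 genes, the summed coverage at 0 h was 2688 and 2588 in WT against 7701 and 8858 in cKO, and at 4 h it was 1064 and 1248 in WT against 3793 and 3967 in cKO at 4 h. The median member had a coverage of 9.33 and 13.1 in WT against 48.1 and 52.6 in cKO at 0 h, and of 3.48 and 4.68 in WT against 20.6 and 22.6 in cKO at 4 h. WT and cKO samples did not overlap for any member, which the rule required. Within cKO the paired values were usually close, with a median ratio of the higher to the lower sample of 1.20 at 0 h and 1.22 at 4 h. For 13 members at 0 h and 13 at 4 h this ratio was over 1.5.

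The ratio of the lower cKO to the higher WT value ran from 1.52 to 47.4 at 0 h, with a median of 2.42 over the 61 members whose higher WT value was at least 0.5. At 4 h it ran from 1.51 to 36.1 with a median of 2.70 over 49 members. No ratio is given for the others, since both WT samples were at or near 0. At 0 h both WT values were listed at 0 for 1 member and were under 0.5 for 2 more, and at 4 h these counts were 9 and 6. The ratio was over 3 for 18 members at 0 h and for 21 at 4 h.

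At the edge of the threshold, the smaller of the 2 ratios was 1.514 for 1810009A15Rik, 1.514 for 4930402H24Rik and 1.519 for 2010016I18Rik, which were inside. It was 1.496 for 2810405F17Rik, 1.485 for 2210016F16Rik and 1.47 for 4930404N11Rik, which were outside. The cKO samples carried more total coverage. After the samples of each time were set to an equal median 46 of the 64 genes still met the rule, or 48 with equal totals.

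By the same ratio rule, 418 of all 21080 symbols were higher in cKO at both times (1.98%), and 64 of the 4669 predicted names (1.37%). Most predicted names had little coverage, and among those with both cKO values of at least 2 at both times, 64 of 965 (6.63%) met it, beside 354 of 11057 other genes (3.2%). The mirrored rule, lower in cKO at both times, was met by 34 of the 884 predicted genes with both WT values of at least 2 (3.85%). These shares describe what the rule selected and were not tested.

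**Figure D1:**
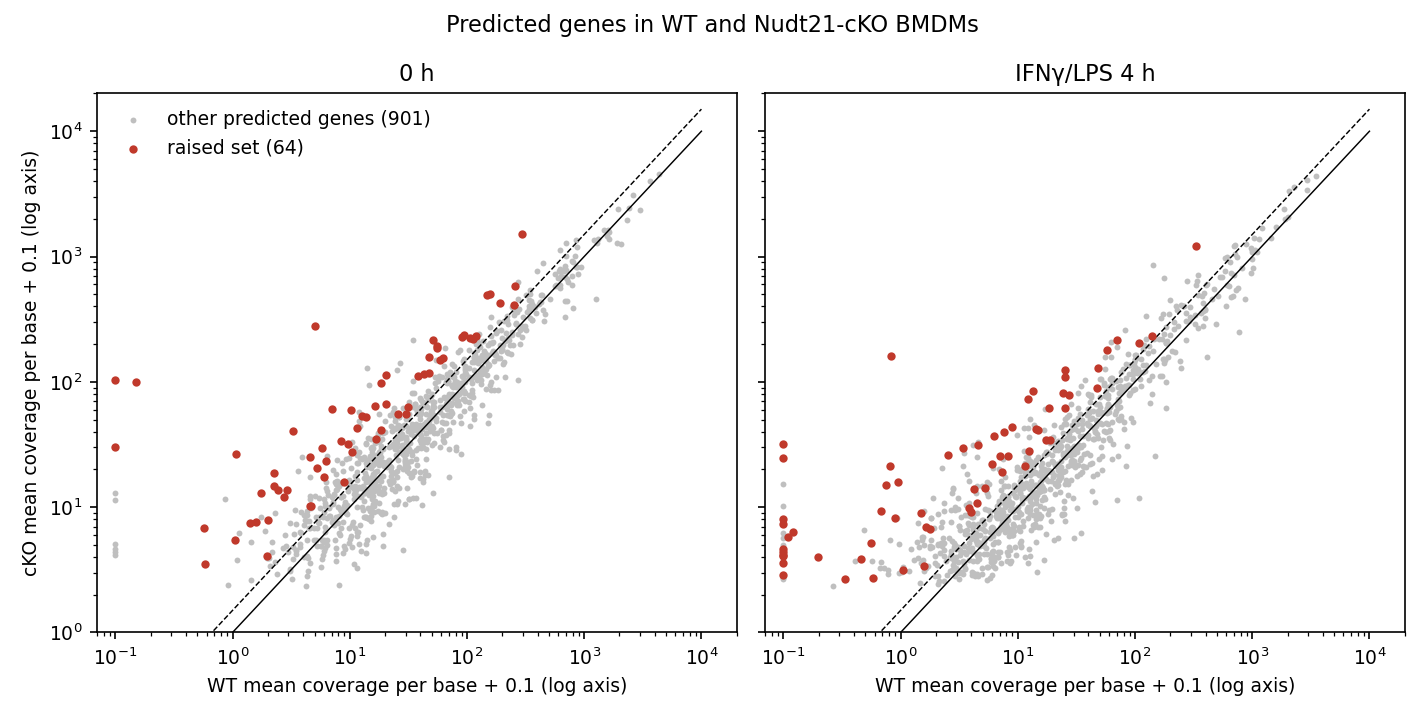
Mean coverage per base (plus 0.1, log axes, n = 2 samples) of predicted genes in WT (x axis) and Nudt21-cKO BMDMs (y axis) at 0 h and 4 h. The 64 raised genes (red) lie above the dashed line of a 1.5-fold ratio by selection, and 901 other predicted genes with both cKO values of at least 2 (grey) spread around the solid line of equality.

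The largest ratios belonged to genes that were almost silent in WT. Gm47601, a noncoding gene of 3 exons at chr14:22927926-22933500 (plus strand, GRCm38), was listed at 0 or 3.1e-05 in all 4 WT samples. In cKO its coverage was 112 and 93.6 at 0 h and 39.3 and 23.8 at 4 h. Every cKO sample was thus far above every WT sample, and the level in cKO was lower after stimulation as deposited (log2 -1.74, limma adjusted p = 0.00236), a call that was lost after centring (-0.54, limma adjusted p = 0.142).

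Gm47601 lies on the same strand inside the last intron of Lrmda, a gene named for melanocyte differentiation. Lrmda had a coverage of 258 and 248 in WT against 31.4 and 39.8 in cKO at 0 h. At 4 h it had 237 and 235 in WT against 28.3 and 28.3 in cKO. The host was therefore lower, and the gene in its last intron higher, in every cKO sample.

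Gm34829, a lincRNA at chr9:77992599-78002261 (plus strand), was listed at 0 in all 4 WT samples. It reached 31.6 and 28.3 in cKO at 0 h and 2.07 and 12.5 at 4 h, so the cKO samples differed by 6.04 times after stimulation, the widest such gap of a member at 4 h. It begins 8080 bases past the end of Elovl5, a fatty acid elongase gene on the same strand. Elovl5 coverage was 1093 and 1200 in WT against 510 and 529 in cKO at 0 h, then 547 and 617 in WT against 332 and 246 in cKO at 4 h. The upstream gene was again the lower one in cKO.

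Gm9465, a lincRNA of 570 exonic bases at chr13:98713074-98716510 (minus strand), gave the widest separation where WT was measurable. Its coverage was 4.5 and 5.47 in WT against 259 and 303 in cKO at 0 h. At 4 h it was listed at 0 in both WT samples and was 23.1 and 25.9 in cKO. It lies 6893 bases past the end of Fcho2, an endocytosis gene on the same strand. Fcho2 coverage was 2109 and 2252 in WT against 1810 and 1816 in cKO at 0 h, and 245 and 279 in WT against 404 and 363 in cKO at 4 h. It was thus lower in cKO at 0 h and higher at 4 h, while Gm9465 was higher at both.

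Gm42031, at chr8:85125872-85132289 (minus strand), was the member whose cKO samples differed most at 0 h. Its coverage in WT was 0.0039 and 0.094 at 0 h and 1.33 and 0.12 at 4 h. In cKO, replicate 3 had 25.7 at 0 h and 48.1 at 4 h, and replicate 4 had 175 and 271. Replicate 4 was the higher one at both times, by 6.78 times at 0 h. Stretches of at least 300 bases of the Gm42031 transcript matched transcripts of 7 other genes at 95% identity or more, so reads could be shared and its level is uncertain.

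Lower levels but wide ratios were seen for several other lincRNAs. Gm19325 had 1.02 and 0.90 in WT against 19.7 and 32.9 in cKO at 0 h, and was listed at 0 in WT and at 3.48 and 2.1 in cKO at 4 h. 4930512J16Rik had 8.13 and 5.83 in WT against 65.8 and 55.2 in cKO at 0 h, and was listed at 0 in WT and at 3.61 and 4.43 in cKO at 4 h. In both genes the cKO samples lost most of their coverage with stimulation while both WT samples were listed at 0.

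Gm16214, antisense to the sorting receptor gene Sorl1, differed between genotypes at both times, as the rule required of every member. It had 10.1 and 10.3 in WT against 45.2 and 72.9 in cKO at 0 h, then 5.38 and 6.89 in WT against 36.1 and 37.1 in cKO at 4 h. Gm17749 had 12.7 and 27.9 in WT against 112 and 113 in cKO at 0 h, then 2.51 and 2.39 in WT against 22.5 and 29.8 in cKO at 4 h. Gm2511 and Gm12972 had 1 WT sample at 0 h and at least 1 at 4 h listed at 0. Gm2511 reached 33.0 and 48.4 in cKO at 0 h, and Gm12972 reached 4.08 and 9.30.

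**Figure D2:**
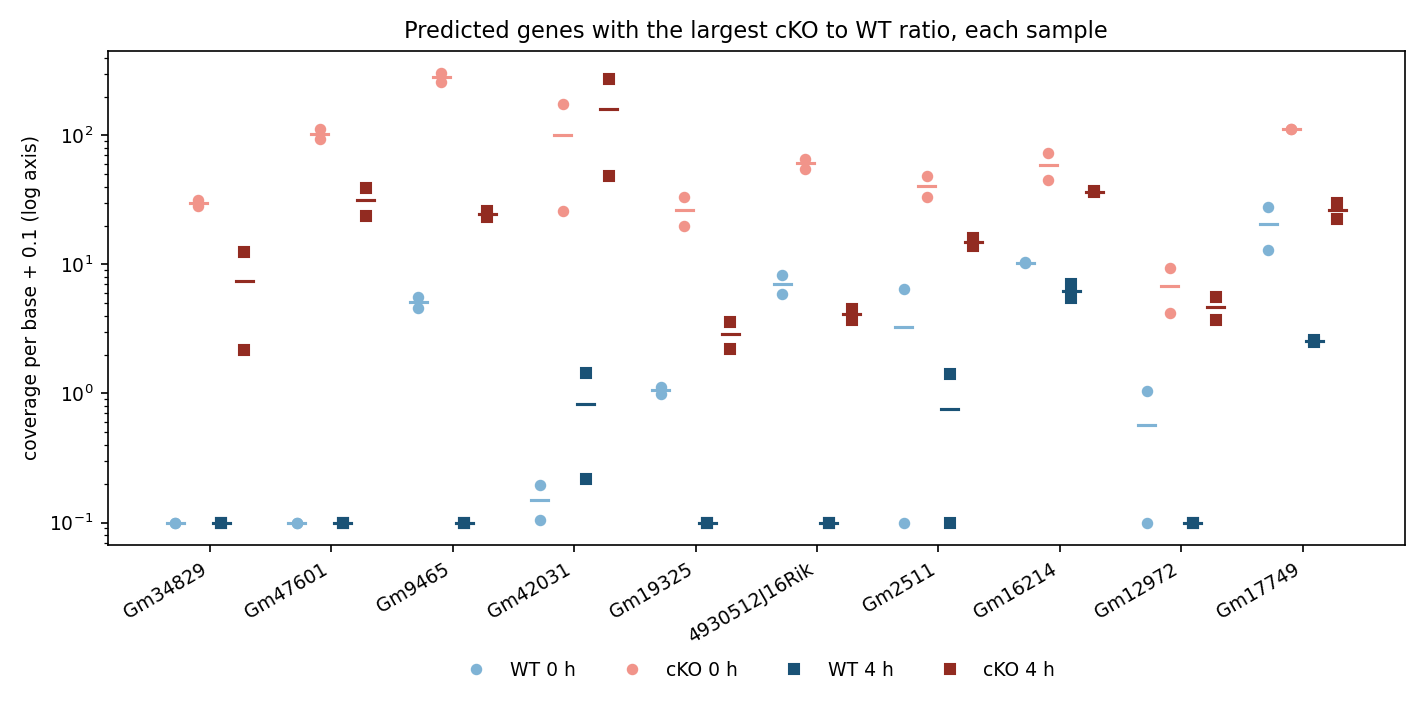
Coverage per base (plus 0.1, log axis) in each sample for the 10 genes with the largest cKO to WT ratio. Circles are 0 h, squares are 4 h, blue is WT, red is cKO and bars are means of 2 samples; Gm34829 and Gm47601 sit at the floor of 0.1 in all 4 WT samples, and the 2 cKO samples of Gm42031 stand far apart.

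The member with the highest coverage was Gm15832, at chr1:39547570-39552002 (minus strand). It had 310 and 276 in WT against 1446 and 1592 in cKO at 0 h, then 295 and 363 in WT against 1244 and 1199 in cKO at 4 h. Every cKO sample was above every WT sample, and the means differed by 5.18 times at 0 h and 3.71 times at 4 h. Gm15832 starts within the last exon of Rnf149, a ubiquitin ligase gene on the same strand, and continues past its end. It shares 38.6% of its exonic bases with other exons. Rnf149 itself had 7547 and 8527 in WT against 5786 and 5703 in cKO at 0 h, then 4733 and 5079 in WT against 6328 and 6558 in cKO at 4 h. Some reads of the shared stretch could have been assigned to either gene.

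Of the other members with high coverage, Gm45606 and Gm13391 were strongly time-dependent. Gm45606, on the strand opposite to the amino acid transporter gene Slc43a2, had 268 and 243 in WT against 516 and 647 in cKO at 0 h, then 4.18 and 6.22 in WT against 10.6 and 17.5 in cKO at 4 h. Gm13391, a lincRNA on chromosome 2, had 150 and 146 in WT against 464 and 517 in cKO at 0 h, then 1.43 and 0 in WT against 17.7 and 25.1 in cKO at 4 h. 2310015A10Rik, a noncoding gene on chromosome 12, had 107 and 134 in WT against 205 and 258 in cKO at 0 h, then 5.88 and 11.7 in WT against 43.4 and 43.2 in cKO at 4 h. These 3 genes lost most of their coverage, while the order between genotypes was the one that the rule required.

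Of the 64 members, 42 matched the RefSeq gene table and 12 of these were protein-coding there. By mean coverage over the cKO samples the most covered of them was 1810009A15Rik, with 153 and 163 in WT against 445 and 565 in cKO at 0 h. At 4 h it had 45.8 and 68.2 in WT against 253 and 103 in cKO, so that replicate 4 lay close to the threshold. It overlaps Lbhd1 on the same strand and shares 50.9% of its exonic bases with other exons. 4930402H24Rik, the longest member with 10659 exonic bases, had 251 and 255 in WT against 389 and 429 in cKO at 0 h, then 135 and 146 in WT against 221 and 241 in cKO at 4 h. Its coverage was thus above that of 1810009A15Rik in every WT sample.

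1700109H08Rik had nearly the same coverage in cKO at both times as deposited, which was a called rise after centring (log2 1.28, limma adjusted p = 0.00805). It had 60.5 and 51.0 in WT against 189 and 196 in cKO at 0 h, then 126 and 91.1 in WT against 204 and 204 in cKO at 4 h. Gm13212 had 167 and 216 in WT against 409 and 444 in cKO at 0 h, then 18.8 and 36.1 in WT against 67.0 and 90.6 in cKO at 4 h. Its transcripts share stretches with the zinc finger genes Zfp984 and Zfp985 at 97.7% and 95.7% identity, so its reads could be split among copies. 5 members had such a copy elsewhere in the genome among the genes measured: 4930579C12Rik, E030030I06Rik, Gm13212, Gm3417 and Gm42031.

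Gm42517, a single-exon gene, had 56.6 and 54.9 in WT against 167 and 202 in cKO at 0 h, then 11.1 and 15.9 in WT against 87.6 and 80.9 in cKO at 4 h. 4930486L24Rik had 18 and 18.8 in WT against 87.3 and 110 in cKO at 0 h, then 16.2 and 20.4 in WT against 64.3 and 58.4 in cKO at 4 h. Its transcript matched Gm49392, which is not among the genes measured, over 1270 bases at 100% identity, so its reads could be shared. At 0 h the ratio of the lower cKO to the higher WT value was 2.44 for E030030I06Rik and 1.69 for Gm3417.

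Several members start close to a gene on the opposite strand, like transcripts of a shared promoter. 4632404H12Rik, beside Ube2q1, had 117 and 93.5 in WT against 224 and 220 in cKO at 0 h, then 11.2 and 13.7 in WT against 23.7 and 32.6 in cKO at 4 h. 3830408C21Rik, beside the kinesin gene Kif2a, had 26.6 and 25.1 in WT against 59.9 and 51.0 in cKO at 0 h. Gm16576, beside Sun2, a gene of the nuclear envelope, had 39.2 and 23.9 in WT against 63.5 and 61.7 in cKO. In each of these 3 the gap between genotypes was less wide than the drop between times.

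4933433G15Rik, beside the kinase gene Mapk6, had 2.69 and 2.93 in WT against 11.2 and 16.1 in cKO at 0 h, and at 4 h 0 and 0.72 in WT against 3.29 and 4.28 in cKO. 6330403L08Rik, antisense to the growth factor gene Pdgfa, had 113 and 113 in WT against 187 and 254 in cKO at 0 h, and 6.23 and 8.28 in WT against 19.7 and 18.4 in cKO at 4 h. Both fell with stimulation in WT on the deposited scale. After centring the call held for 6330403L08Rik (limma adjusted p = 0.000112) and was lost for 4933433G15Rik (limma adjusted p = 0.13). Of the other antisense members, the ratio of the lower cKO to the higher WT value at 0 h was 2.88 for Gm31728, 1.58 for Gm45820, 1.98 for Gm48796, 2.40 for Gm47512 and 1.53 for Gm45479, and Gm45479, opposite to Irf2, had 6.48 and 4.88 in cKO at 4 h where WT was under 0.5.

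Gm21781 was a further lincRNA that no other gene overlapped. It had 89.8 and 92.1 in WT against 211 and 247 in cKO at 0 h, then 18.8 and 18.9 in WT against 38.6 and 29.5 in cKO at 4 h. Gm40932 had 24.9 and 2.15 in WT against 52.0 and 52.0 in cKO at 0 h, so its WT samples stood far apart while its cKO samples were level. D330050G23Rik had 4.64 and 4.33 in WT against 9.61 and 10.6 in cKO at 0 h, then 6.35 and 7.58 in WT against 17.3 and 34.1 in cKO at 4 h. Its cKO samples rose with stimulation in limma on both scales.

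Gm33929 and Gm35279 showed the wider spread of low genes. Gm33929 had 1.59 and 1.02 in WT against 10.9 and 3.96 in cKO at 0 h, and 0.54 and 6.03 in WT against 33.1 and 26.0 in cKO at 4 h. Gm35279 had 2.49 and 1.84 in WT against 27.6 and 9.54 in cKO at 0 h, and 0.47 and 0.70 in WT against 4.88 and 13.5 in cKO at 4 h. Neither group overlapped the other in these genes, but samples of 1 group stood well apart, most of all the WT samples of Gm33929 at 4 h.

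The ratio of the lower cKO to the higher WT value was 2.67 at 0 h and 8.03 at 4 h for Gm13657, 2.72 and 1.75 for Gm26621, and 2.24 and 3.16 for Gm35025. Gm29686 and D630024D03Rik had ratios of 2.52 and 2.07 at 0 h and were listed at 0 in both WT samples at 4 h. Of the coding names, Gm45871 had 2.55 and 2.11 and A030005L19Rik had 2.23 and 1.75. Gm46620, Gm49980 and Gm9993, which did not match GENCODE, had 2.14, 2.25 and 2.43 at 0 h and 5.37, 2.14 and 3.19 at 4 h. The remaining name, 2010016I18Rik, had 2.50 and 1.52.

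By GENCODE type, the 61 matched members were 18 lincRNAs, 14 protein-coding genes, 13 antisense genes, 9 processed transcripts, 4 sense intronic genes and 3 bidirectional promoter lncRNAs. No other gene overlapped 34 of them (55.7%), against 41.8% of the 877 other predicted genes. An opposite-strand overlap was found for 29.5% against 47.3%, and a same-strand overlap for 14.8% against 10.8%. Another gene started within 1000 bases on the opposite strand for 13 members (21.3% against 30.4%), and one ended within 10000 bases upstream on the same strand for 15 (24.6% against 21.7%). Exonic length and exon number were alike, with medians of 1885 and 1820 bases and of 3 and 3 exons. Chromosome 9 held 10 members (16.4%) against 4.9% of the other predicted genes. These shares describe the set and were not tested.

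**Figure D3:**
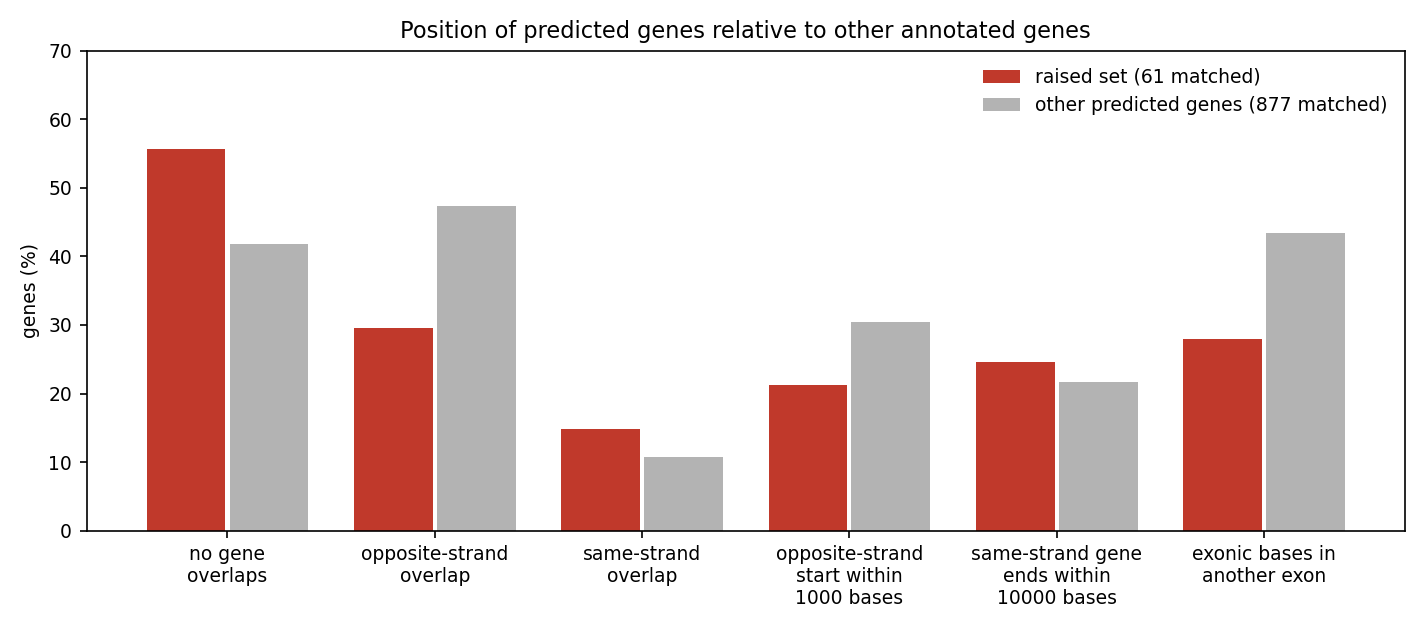
Percentage of the 61 raised predicted genes (red) and of 877 other predicted genes (grey) in each position relative to other GENCODE M21 genes. Raised genes overlapped no other gene in 55.7% of cases against 41.8%, and the classes in the right part are not exclusive.

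The genes beside or over the members met the ratio rule, over all classes, about as often as genes in general. Of 50 such partners with a mean coverage of at least 0.5, 4 met the ratio rule at 0 h, 11 at 4 h and 2 at both times, beside 7.81%, 18.7% and 3.48% of all genes with enough coverage in cKO. By class, it was met at 0 h and 4 h by 2 and 8 of 19 genes overlapping on the opposite strand, by 2 and 5 of 13 starting within 1000 bases on the opposite strand, by 2 and 1 of 13 ending upstream on the same strand and by 0 and 0 of 9 overlapping on the same strand, and some genes belong to more than 1 class. The 2 partners that met it at both times were Dio2, the thyroid hormone deiodinase gene, and Aph1c, a gamma-secretase subunit gene.

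Dio2 starts opposite to Gm26512 and had 103 and 115 in WT against 356 and 313 in cKO at 0 h, then 5.36 and 4.64 in WT against 10.2 and 16.8 in cKO at 4 h. Gm26512 itself had 5.49 and 13.7 in WT against 29.6 and 33.8 in cKO at 0 h, and was listed at 0 in WT and at 3.99 and 3.96 in cKO at 4 h. Aph1c starts opposite to Gm17098 and had 2376 and 2629 in WT against 4374 and 4158 in cKO at 0 h, then 132 and 150 in WT against 330 and 382 in cKO at 4 h. Both partner pairs were thus raised together in cKO. Their starts overlap by 237 and 27 bases, and the share of reads from the opposite strand was not tested.

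Gm47601 was 1 of 4 sense intronic members. Gm17491, in intron 1 of Slc20a2, had 54.3 and 48.1 in WT against 209 and 224 in cKO at 0 h, then 4.53 and 7.36 in WT against 22.8 and 21.4 in cKO at 4 h. Slc20a2 had 196 and 222 in WT against 197 and 203 in cKO at 0 h, then 47.6 and 53.2 in WT against 58.9 and 52.7 in cKO at 4 h. The WT and cKO samples of the host overlapped at both times, while those of the gene in its intron did not. Gm47140, in an intron of Zfp445, had 18.3 and 14.4 in WT against 63.2 and 63.7 in cKO at 0 h, while Zfp445 had 709 and 728 in WT against 812 and 931 in cKO. Gm43768, in intron 1 of Snx27, had 1.02 and 3.68 in WT against 13.6 and 13.7 in cKO at 0 h.

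**Figure D4:**
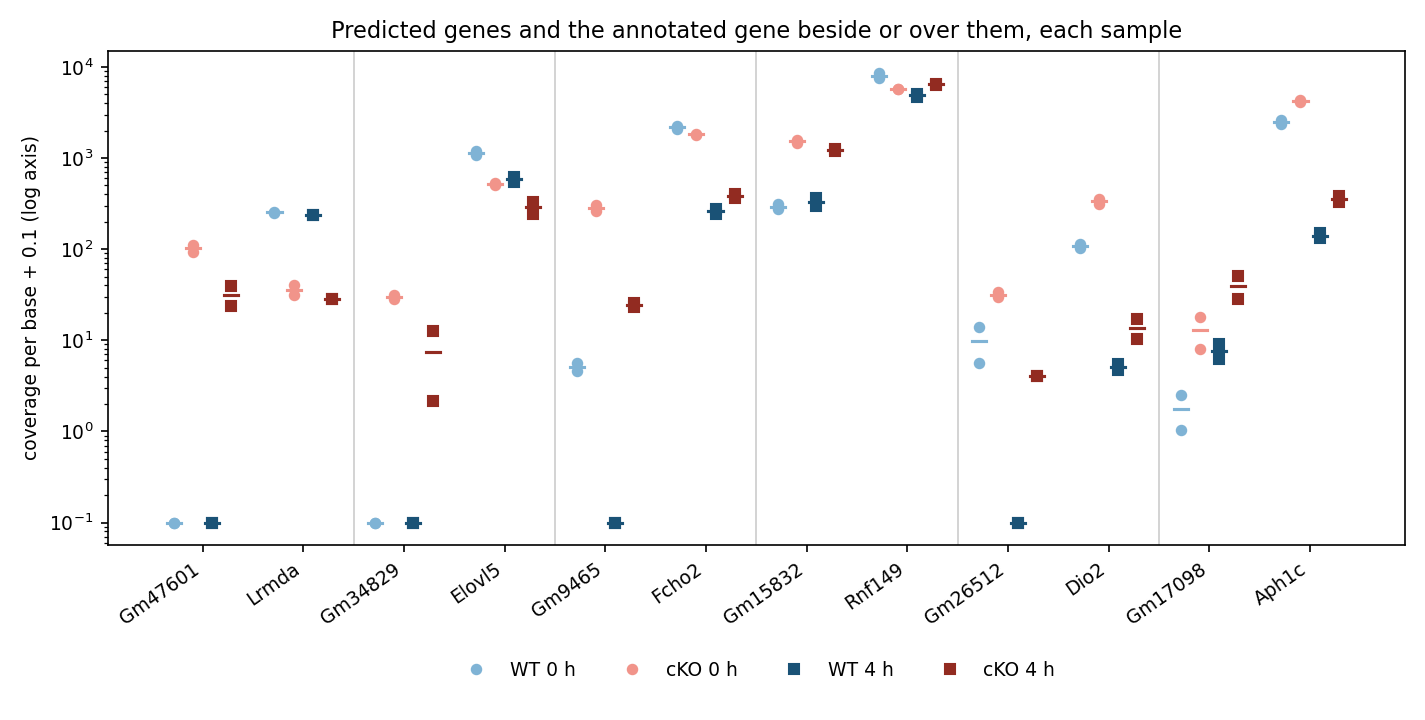
Coverage per base (plus 0.1, log axis) in each sample for 6 predicted genes and, to the right of each, the annotated gene beside or over it. Circles are 0 h, squares are 4 h, blue is WT, red is cKO and bars are means of 2 samples; Lrmda and Elovl5 were lower in every cKO sample while Gm47601 and Gm34829 were higher, and Dio2 and Aph1c were higher together with Gm26512 and Gm17098.

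The response to IFNγ/LPS, the difference between times, was not itself a criterion of the rule, but the rule required a coverage of at least 2 in cKO at both times, which limits how far a member can fall there. The response was tested in limma, using log2(coverage + 0.1) of 16284 genes, with Benjamini-Hochberg adjustment and calls at a fold change over 1.5 and an adjusted p under 0.05. The median gene was lower at 4 h than at 0 h by this scale, at a log2 of -1.24 in WT and -1.03 in cKO, so every count is given as deposited and with each sample centred on its median. The times sit in separate tables, so time and any difference between tables cannot be told apart. In WT 9 members rose and 37 fell, beside 11.7% and 54.7% of all genes and 9.76% and 36.7% of predicted genes. After centring 17 rose and 24 fell, beside 33.8% and 20.8% of all genes and 19.4% and 16.8% of predicted genes. The 17 include Gm47601, whose WT values were at or near 0 throughout, so its centred rise carries no change in coverage.

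In cKO 8 members rose and 33 fell, beside 13.2% and 50.4% of all genes and 10.8% and 36.8% of predicted genes. After centring 14 rose and 18 fell, beside 31.5% and 20.8% of all genes and 17.7% and 19.9% of predicted genes. The median log2 difference of the members was -1.95 in WT and -1.72 in cKO, and after centring -0.48 and -0.52, beside 0.23 and 0.17 over all genes and -0.18 and -0.46 over all predicted genes. The calls that held on both scales were 9 rises and 24 falls in WT, beside 11.7% and 20.8% of all genes, and 8 and 18 in cKO, beside 13.2% and 20.8%. In both genotypes and on both scales 6 members rose and 18 fell, beside 10.2% and 15.7% of all genes and 7.71% and 11.1% of predicted genes. These shares were taken over genes that did not have to reach the members' minimum of 2 in cKO. The same holds for the shares given for each genotype alone. No group of like coverage was compared, so whether the members fell more often than such genes was not tested. Both WT samples at 4 h were under a coverage of 0.5 for 7 of the 24 falls in WT, so no fold is given for those.

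Gm12216, protein-coding in GENCODE and noncoding in RefSeq, had the largest called rise of the members in both genotypes. Its coverage went from 2.88 and 1.43 at 0 h to 62.6 and 77.5 at 4 h in WT, and from 22.4 and 6.99 to 193 and 236 in cKO. All 4 h samples were above all 0 h samples of their genotype. The log2 difference was 5.03 in WT (standard error 0.62, limma adjusted p = 0.00118) and 4.08 in cKO (standard error 0.62, limma adjusted p = 0.00282), and 6.50 and 5.28 after centring. Gm12216 lies 5044 bases from Irf1, the gene of an interferon-induced transcription factor on the opposite strand. Irf1 rose from 853 and 731 to 14179 and 14391 in WT and from 687 and 765 to 19303 and 21570 in cKO, a log2 difference of 4.18 and 4.81 (limma adjusted p = 2.59e-05 and 1.72e-05). Slc22a5, a carnitine transporter gene that ends 5286 bases upstream of Gm12216 on its own strand, had -1.54 and -1.66 (limma adjusted p = 0.00082 and 0.000703), and -0.07 and -0.46 after centring.

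4930579C12Rik, a lincRNA on chromosome 9 with near-identical copies, went from 0.63 and 0.34 to 6.79 and 9.34 in WT and from 3.41 and 3.43 to 25.4 and 25.2 in cKO. Its log2 difference was 3.83 in WT (limma adjusted p = 0.000207) and 2.85 in cKO (limma adjusted p = 0.00062). 2200002D01Rik, a protein-coding gene opposite to Yif1b, went from 2.99 and 7.26 to 17.1 and 33.6 in WT and from 16.8 and 23.8 to 102 and 118 in cKO. Its log2 difference was 2.33 in WT (limma adjusted p = 0.0115) and 2.45 in cKO (limma adjusted p = 0.0102). Yif1b had a log2 difference of -0.48 and -0.04 on the deposited scale and of 0.985 and 1.16 after centring. 2200002D01Rik shares 23.1% of its exonic bases with exons of Yif1b. Spint2, a protease inhibitor gene that ends 7857 bases upstream on the same strand, rose by 2.88 and 4.04 (limma adjusted p = 0.00252 and 0.000821).

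4930599N23Rik overlaps Kdm7a on the opposite strand, with 32.6% of its exonic bases in exons of that gene. It starts 124 bases from Parp12, an interferon-induced gene also on the opposite strand. It went from 23.2 and 13.3 to 60.8 and 35.7 in WT and from 36.8 and 45.8 to 124 and 135 in cKO. The log2 differences were 1.40 and 1.66 (limma adjusted p = 0.0197 and 0.0115), Parp12 had 2.62 and 2.73 (limma adjusted p = 3.84e-05 and 3.85e-05), and Kdm7a had -1.18 and -1.11 (limma adjusted p = 0.00072 and 0.001), which became 0.29 and 0.09 after centring (limma adjusted p = 0.101 and 0.566). Gm17034, opposite to the hexokinase gene Hk2, rose by a log2 of 1.16 in WT and 1.42 in cKO (limma adjusted p = 0.0106 and 0.00524), and Hk2 rose by 1.65 and 2.65 (limma adjusted p = 0.000192 and 6.28e-05). 4933430I17Rik was the last of the 6 that rose throughout, with 1.39 and 1.16 (limma adjusted p = 0.0235 and 0.0433). These neighbours were named after their values were seen.

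Gm17098 went the other way from its partner. It went from 0.95 and 2.38 to 6.14 and 9 in WT, a log2 rise of 2.23 (limma adjusted p = 0.0247). In cKO it went from 18 and 7.87 to 28.4 and 51.0, where the deposited scale gave 1.67 (limma adjusted p = 0.0627) and centring 2.87 (limma adjusted p = 0.0138). Aph1c, across its start, fell by a log2 of 4.15 in WT and 3.59 in cKO (limma adjusted p = 2.66e-05 and 3.69e-05).

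Among members with a coverage above 1 in every sample, the deepest called falls were those of Gm45606, A130014A01Rik and Gm20658. Gm45606 fell by 5.62 in WT and 5.4 in cKO on the log2 scale (limma adjusted p = 9.73e-05 and 0.000128), and its opposite-strand gene Slc43a2 fell by 5.28 and 3.40 (limma adjusted p = 2.8e-05 and 8.32e-05). Gm45606 shares 33.0% of its exonic bases with exons of Slc43a2, and without strand their reads could not be told apart there. A130014A01Rik, which starts 100 bases from Zdhhc7, went from 82.0 and 41.5 to 1.55 and 1.42 in WT and from 145 and 165 to 3.23 and 3.29 in cKO. Its log2 difference was -5.21 and -5.52 (limma adjusted p = 0.000128 and 0.000128). Gm20658 went from 105 and 83.2 to 3.94 and 4.32 in WT and from 197 and 276 to 13 and 14.5 in cKO, with -4.47 and -4.08 (limma adjusted p = 6.22e-05 and 9.32e-05).

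D930048N14Rik went from 53.8 and 40.1 to 0 and 0.47 in WT and from 100 and 135 to 2.12 and 2.98 in cKO, where it fell by a log2 of 5.47 (limma adjusted p = 0.00269). Gm13391 fell in cKO by 4.53 (limma adjusted p = 0.0236), a call that was lost after centring (limma adjusted p = 0.0833). 1700110C19Rik went from 3.75 and 12.8 to 0 and 0.04 in WT and from 31.6 and 35.1 to 6.16 and 6.30 in cKO. In these genes stimulated WT cells had almost no coverage while stimulated cKO cells kept some, which the rule at 4 h also required.

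**Figure D5:**
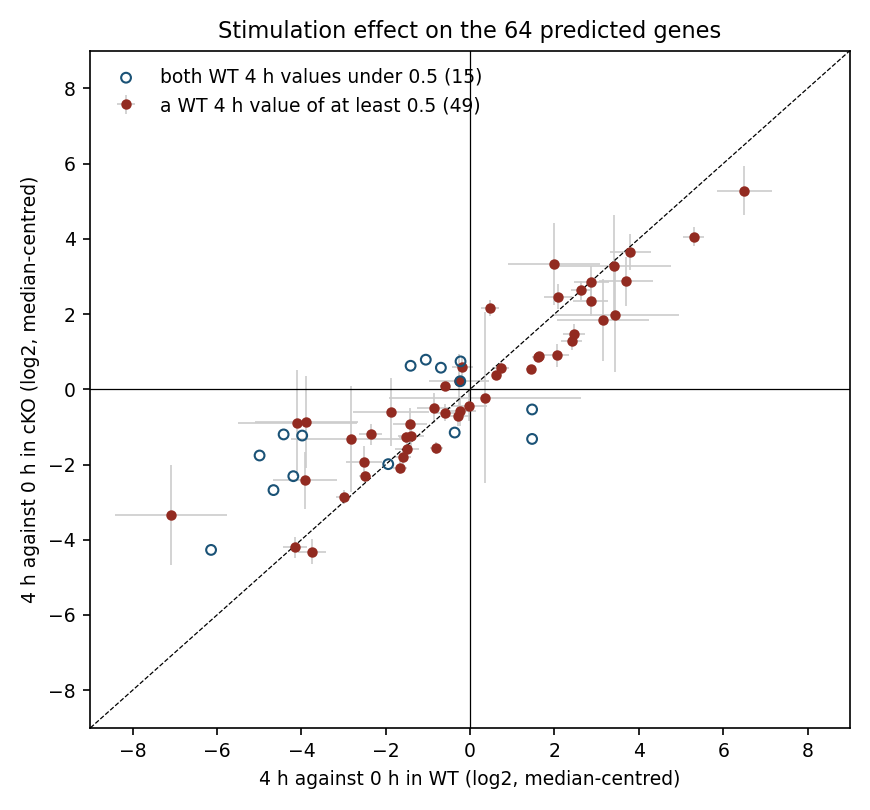
Difference between 4 h and 0 h (log2, median-centred) of the 64 genes in WT (x axis) and cKO (y axis). Filled points are 49 genes with a WT value of at least 0.5 at 4 h, with standard errors from limma (n = 2 samples a group), open points are 15 genes with both values below it, whose position on the x axis depends on the added 0.1, and the dashed line marks equal responses.

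The difference between the genotypes' responses was tested as an interaction over the same 16284 genes. A positive interaction (a 4 h against 0 h difference that was higher in cKO than in WT) was called for 2 members, Gm9465 and 4930512J16Rik, and a negative one for 0, beside 2.28% and 0.761% of all genes by limma at an adjusted p under 0.05. After centring 1 was positive (Gm9465) and 0 negative, beside 1.07% and 1.06%. An unadjusted p under 0.05 was reached by 13 members, beside 22.1% of all genes. The limma adjusted p was 0.0152 for Gm9465 and 0.0323 for 4930512J16Rik, and with a pseudocount of 1 the fitted difference of both changed sign, to -0.89 and -0.63. Neither call was made with a trended variance or with the replicate number as a block. Both genes were listed at 0 in WT at 4 h, where the rule required a coverage of at least 2 in cKO, so neither the sign nor the size of these differences is free of the selection and the added 0.1. For Gm15832 the interaction was -0.48 (standard error 0.20, limma adjusted p = 0.256), and after centring -0.74 (standard error 0.13, limma adjusted p = 0.0694).

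Gm15512, antisense to Arhgap22, had called responses of opposite sign. It went from 7.77 and 9.90 to 3.59 and 5.27 in WT, a log2 fall of 0.99 (limma adjusted p = 0.0142), and from 16.3 and 15.4 to 27.6 and 34.3 in cKO, a rise of 0.95 (limma adjusted p = 0.0172). The interaction of 1.95 missed the threshold (limma adjusted p = 0.0562), and after centring WT had 0.47 (limma adjusted p = 0.107), so the fall in WT depended on the scale. Arhgap22 went from 1517 and 1553 to 272 and 327 in WT and from 1402 and 1584 to 1064 and 1249 in cKO, with an interaction of 1.99 (limma adjusted p = 0.0193). Gm15512 shares 63.3% of its exonic bases with exons of other genes, and without strand its reads and those of Arhgap22 could not be told apart there.

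Noncoding genes with full names, from a list of 74 of which 48 had enough coverage, gave a comparison outside the predicted names. At 0 h 4 of them rose in cKO and 0 fell by the study's threshold, beside 8.99% and 5.61% of all genes, with a median log2 difference of 0.22 against 0.10 over all genes. These were Snhg14, Mir142hg, Mirt1 and Oip5os1. At 4 h 4 rose (Snhg14, Snhg16, Epb41l4aos and Oip5os1) and 2 fell (Malat1 and Morrbid), beside 20.8% and 4.17%, with a median of 0.08 against 0.31. After centring 2 rose and 8 fell at 4 h, beside 10.4% and 9.9%. With limma's adjusted p under 0.05, 0 were called at 0 h, beside 0.701% of all genes higher and 0.326% lower, and 1, Oip5os1, at 4 h, beside 3.33% and 0.528%, a call that was lost after centring.

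Oip5os1, also known as Cyrano, had 485 and 559 in WT against 1045 and 1129 in cKO at 0 h, then 155 and 154 in WT against 475 and 485 in cKO at 4 h. The log2 differences were 1.06 and then 1.64 (limma adjusted p = 0.101 and 0.035). Mir142hg, the host of a leukocyte microRNA, had 16.6 and 21.7 in WT against 82.1 and 81.9 in cKO at 0 h but 13.5 and 6.92 in WT against 13 and 10.4 in cKO at 4 h. Snhg14 had 44.9 and 43.4 in WT against 82.2 and 78.3 in cKO at 0 h, then 2.52 and 5.34 in WT against 15.4 and 14.1 in cKO at 4 h. The largest fitted differences of the list belonged to genes with a coverage under 20 and did not pass: Mir17hg, Snhg11 and Rmrp at 0 h, and Rmrp, Mirt2, Snhg9 and Crnde at 4 h.

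Genes for nuclear RNA decay and transcription termination, the machinery that limits transcripts of this kind, were listed beside them, and 48 of 53 had enough coverage. At 0 h 5 rose in cKO and 0 fell, beside 8.99% and 5.61% of all genes: the exosome nuclease gene Dis3, the nuclear poly(A)-binding protein gene Pabpn1, the noncanonical poly(A) polymerase gene Tent4b, the Integrator subunit gene Ints2 and the cap-binding gene Ncbp2. At 4 h 12 rose and 0 fell, beside 20.8% and 4.17%. After centring 3 rose and 5 fell at 4 h, so the direction of the list there depends on the scale. Ncbp2 had 667 and 602 in WT against 1407 and 1631 in cKO at 0 h, then 238 and 217 in WT against 971 and 1047 in cKO at 4 h.

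Ncbp2 had log2 differences of 1.26 and 2.15 at the 2 times (limma adjusted p = 0.0923 and 0.0325). Tent4b had 0.98 and 1.36 (limma adjusted p = 0.0827 and 0.0489). With the adjusted p, 0 genes of the list were called at 0 h and these 2 at 4 h, and 0 at 4 h after centring. In cleavage factor Im itself, Cpsf6 had 804 and 798 in WT against 2406 and 2477 in cKO at 0 h, then 457 and 433 in WT against 1676 and 1753 in cKO at 4 h, a log2 difference of 1.61 and 1.95 (limma adjusted p = 0.0456 and 0.0325), where the call at 4 h was lost after centring.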

How the data were processed

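RNA-seq was performed on 8 samples of BMDMs, 2 per genotype and time, with a library kit that does not mark strand. The authors aligned reads with HISAT2 2.2.1 to GRCm38 and quantified genes with StringTie 2.1.7, and the deposited values were read as StringTie coverage (mean reads per base, 1 value per gene symbol and sample) with no scaling between samples, a unit the files do not name. The tables also hold the authors' own fold changes and p-values, which were not used. The total coverage of a sample is not its read number, and the reads behind each value are not given in the sources used here, so no counting interval is given.

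Members were found on the deposited values. The members and all lists (named noncoding genes, nuclear RNA decay and termination, cleavage factor Im, and markers of macrophages, neutrophils, T cells, B cells, erythroid cells, fibroblasts, dendritic cells and mast cells) were chosen with earlier results of these data known. Positions and transcript ends came from GENCODE M21 (GRCm38), which matched 61 members, and names and types from the RefSeq gene table of GRCm38.p6. Copies were searched with blastn 2.17.0, as stretches of at least 300 bases at 95% identity or more.

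Tests used limma 3.58.1 (R 4.3.3) after adding 0.1 and taking log2, where the mean over the samples fitted reached 0.5, with Benjamini-Hochberg adjustment, on all 8 samples for stimulation and the interaction and on the 4 samples of 1 time for genotype. Folds are on this log2 scale, which understates changes of low genes. The method was tested on simulated data. Named members were the 10 with the highest mean coverage in cKO, the 10 with the largest smaller ratio of the 2 times, 3 on each side of the threshold, the 5 largest called rises and falls in each genotype, those with a called interaction and up to 10 protein-coding members, with their nearest neighbours, and the other members and neighbours were added after their values were seen. Alternatives were other scalings, pseudocounts and filters, a trended variance, a replicate block and leaving out each sample. An exact permutation test of 2 against 2 samples cannot reach a p below 0.333.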

Additional observations from a re-analysis of the deposited data

Results flagged for a closer look

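For 2 members limma's interaction test between genotype and IFNγ/LPS passed the threshold on the deposited scale. Gm9465 had an adjusted p of 0.0152 and 4930512J16Rik an adjusted p of 0.0323. Both were listed at 0 in both WT samples at 4 h, where cKO kept a coverage of 23.1 and 25.9 and of 3.61 and 4.43, and adding 1 in place of 0.1 before taking logs turned the sign of both fitted differences. The rule that chose the members required cKO coverage at 4 h, and neither call was made with a trended variance or a replicate block.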

How the results depend on the processing

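The set held 39 genes with a ratio of 2, and leaving out 1 sample gave 76 to 97 (97 without cKO 0 h replicate 3). Leaving out a sample can only loosen the rule, so this count could not fall under 64. Genes called for genotype (higher, lower) were 114 and 53 at 0 h and 498 and 79 at 4 h with an adjusted p. By the unadjusted p they were 3112 and 624 at 4 h as deposited, 1941 and 1013 at equal totals, 1552 and 1480 after centring on the median and 1530 and 1476 after quantile normalization. Without 1 sample they were 1027 to 1637 and 876 to 1009 at 0 h, and 1765 to 4000 and 478 to 862 at 4 h. At 4 h centring gave 2 and 8 named noncoding genes and 3 and 5 nuclear decay genes. Without 1 sample the noncoding genes gave 3 to 9 and 1 to 3 at 0 h (9 without WT replicate 1) and 2 to 5 and 1 to 3 at 4 h, and the nuclear decay genes 4 to 7 and 0 at 0 h and 5 to 15 and 0 at 4 h (5 without cKO replicate 4).

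Stimulation in WT gave 5499 and 3392 genes (17 and 24 members) after centring, 3514 and 4636 (15 and 22) after quantile normalization and 5378 and 3195 (18 and 22) with a replicate block and centring. In cKO these were 5131 and 3391 (14 and 18), 3366 and 4671 (15 and 18) and 4953 and 3144 (15 and 16). Without 1 sample WT gave 1785 to 1846 and 8103 to 8980 genes, with 5 to 8 members higher (5 without either 4 h sample; 16 to 20 after centring) and 32 to 35 lower (24 to 27). In cKO it gave 1879 to 2063 and 6999 to 7549, with 3 to 7 higher (3 without 0 h replicate 3; 13 to 15) and 25 to 27 lower (14 to 16).

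The interaction gave 1035 and 247 genes with a trended variance (0 members positive), 174 positive after centring (1 member), 210 positive after quantile normalization (1 member positive and 2 negative), 15 and 16 with a replicate block (0 members) and 0 and 0 with block and centring (0 members). A pseudocount of 1 left 1 positive, and the fitted differences of Gm9465 and 4930512J16Rik became -0.89 and -0.63. Without 1 sample it gave 117 to 546 and 67 to 146 genes, and 0 to 6 members positive (0 to 5 after centring; 6 without WT 0 h replicate 2 or WT 4 h replicate 2, 0 without cKO 4 h replicate 4) and 0 to 1 negative. The cause of these shifts was not tested.

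Of the single named members, calls were kept in 354 alternatives, lost in 54 and reversed in 2. Replicate numbers recur at both times, and deviations of same-numbered samples correlated at 0.0204 in WT and 0.0237 in cKO over 16284 genes. The numbers were not taken as pairs, but so low a correlation cannot exclude that the same pools were split between the times. In that case the p-values for stimulation and the interaction leave out a pairing. edgeR and DESeq2, planned for counts, were not run on coverage. Genes near 0 in WT have no usable fold. Of the members, 14 matched another gene over at least 300 bases, overlapping genes included, and 5 had a copy elsewhere among the genes measured.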
